A study of Mus musculus and Rattus norvegicus with 96 samples.

Results

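The cytochrome P450 rows of the rat tables were taken as all rows whose symbol began with Cyp and a digit. They numbered 72 of 28756 rows in the liver table and 72 of 28760 in the lung table. The rat libraries were part of a study on how formalin changes expression profiles of archived tissue, and came from vehicle control male rats, F344 for liver and WKY for lung. Each tissue was kept in 3 ways with 6 labelled libraries each: frozen (FR), frozen first, then kept for 18 to 24 h in neutral buffered formalin (10%) and embedded in paraffin (FR > FFPE), or placed directly in 10% formalin and embedded (FFPE). Direct fixation lasted 18 to 24 h for liver and 1 year for lung. Expression was read by TempO-Seq, a targeted assay in which pairs of short detector oligos are ligated on the RNA and counted by sequencing, on a rat panel stated to hold 2603 genes and 2636 probes. The titles mark the frozen libraries as RNA and the embedded ones as FFPE. In comparisons with FR, input, fixation and embedding therefore cannot be told apart, and in FFPE vs. FR freezing differs as well. Tissue and strain cannot be told apart either, nor can tissue and time in formalin among the FFPE libraries.

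P450 enzymes are haem proteins that insert oxygen into drugs, fatty acids and sterols, mostly with electrons from the reductase encoded by Por. Families 1 to 3 clear foreign compounds, family 4 oxidises fatty acids and eicosanoids, and the higher-numbered families make or break down sterols, bile acids, steroid hormones, retinoids and vitamin D. Hepatocytes hold most of them. The lung is known for a smaller set, largely in airway and alveolar epithelium, and aldosterone synthase, aromatase and cholesterol side-chain cleavage belong to steroid-making organs.

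Of the 72 rows, 36 held a count in a library used here and 36 held none. Those without counts included Cyp2c7, Cyp2d2, Cyp3a9, Cyp3a18, Cyp4b1, Cyp8b1 and Cyp27a1, and whether the panel carried a probe for them was not given in the sources used here. Counts were found in 22 of 35 rows of the xenobiotic families, in 6 of 17 rows for fatty acids and eicosanoids and in 8 of 19 for sterols, steroids, bile acids and vitamins, while the only other row, Cyp20a1, had none. After the filter on low counts 30 rows were tested. The untested rows with counts were Cyp2b2, Cyp2b12, Cyp2b15, Cyp2b21, Cyp3a85-ps and Cyp4f1, with means of at most 1.79 CPM (counts scaled to a column total of 1e6) in any group. Part of the counts of Cyp2b3, Cyp3a2, Cyp3a23/3a1, Cyp2d1, Cyp2d5, Cyp2e1 and Cyp4a2 was not whole. How reads were assigned to rows is not given in the sources used here, so single values of these rows are uncertain. Cyp3a2 values were 6 times a number of at most 6 significant digits in every library of both tables, and 12 rows of plasma protein genes, such as Alb (9 times) and Apoa1 (7 times), were multiples in the same way. The level of Cyp3a2 against other P450 rows is therefore uncertain, and its counts in FR lung were 0, 6 or 12. Cyp3a2 (chromosome 12, 11663683 to 11677831, minus strand) lies within the interval tabled for Cyp3a23/3a1 (11655402 to 11733137) in the rat coordinates of the files. Cyp1a2 (62451329 to 62458302, minus strand) and Cyp1a1 (62472095 to 62478148, plus strand) are neighbours on chromosome 8, and Cyp2c11 (257970345 to 258004435) and Cyp2c24 (258074860 to 258139177) on the plus strand of chromosome 1.

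Library totals were 3040915 to 3970187 counts in FR liver, 2156625 to 3898088 in FR > FFPE liver and 139475 to 889128 in FFPE liver. In lung they were 2013607 to 2505947 in FR, 802686 to 1786809 in FR > FFPE and 226751 to 1634580 in FFPE. Library 54, the sixth FR lung library, held 12 counts and was left out, so FR lung had n = 5 and the other groups n = 6. Albumin was the highest row in every liver library and Lyz2 in every lung library. Of 12 hepatocyte markers 11 had counts, and their sum was 281244 to 344336 CPM in FR liver against 100 to 246 CPM in FR lung. No club or ciliated cell marker had a count. Levels below are CPM of the column total, whereas fold changes are those of edgeR with TMM scaling, and a row was called changed at an adjusted p below 0.05 and a fold of at least 2. The scales differed: the median log2 fold change over all tested rows in FFPE vs. FR liver was 0.35 with TMM and 1.97 with column totals. Shares of all rows called, given below, are those with TMM. Splits with column totals are given without such a share. They show how far the calls depend on the scale, and are not read as results about the listed rows against all rows.

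**Figure D1:**
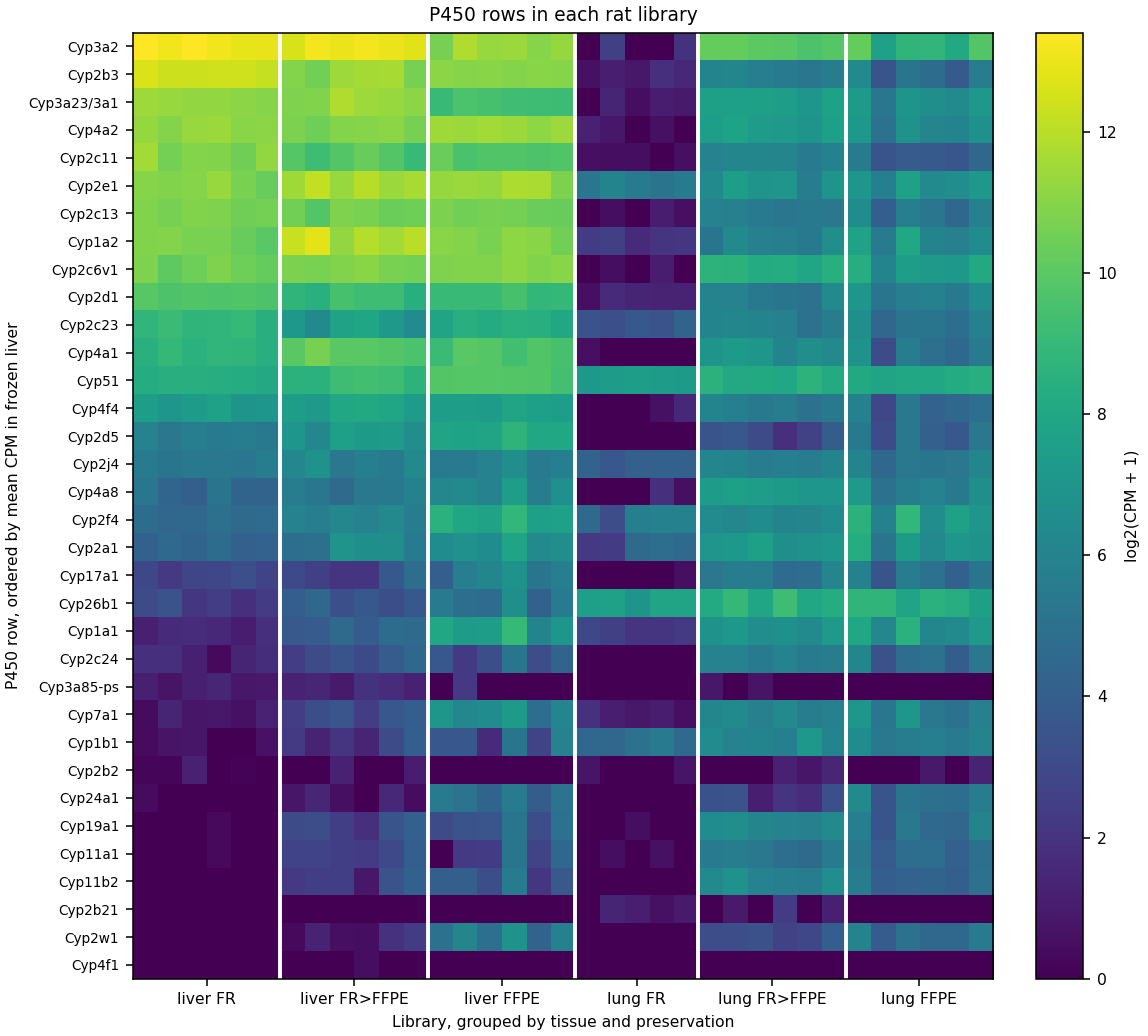
Heat map of log2(CPM + 1) for the 34 P450 rows that reached 1 count, ordered by mean CPM in frozen liver (vertical) over the 35 libraries used, grouped by tissue and preservation (horizontal). Frozen lung is dark outside Cyp26b1, Cyp51 and a few others, with 8 rows at a mean of 10 CPM or more, while embedded lung has 27 (FR > FFPE) and 30 (FFPE).

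Frozen liver carried a broad P450 set led by drug-metabolising rows. The 36 rows together gave a median of 30490 CPM (26221 to 35384), and 19 of them reached a mean of 10 CPM. Cyp3a2, a steroid and drug hydroxylase of adult male rats, had the highest deposited values, at 7776, 8939 and 10829 CPM (lowest, median, highest), or 30.3% ± 1.81 (SD, n = 6) of the P450 sum. Cyp2b3, a constitutive family 2B member, gave 4728, 5427 and 6436 CPM. Neither overlapped any row ranked beneath it. With the 13 rows that are multiples divided by their number and the totals taken anew, Cyp2b3 led at a mean of 8821 CPM, Cyp3a2 was the 8th row at 2475 CPM or 6.76% of the P450 sum, and that sum was 36696 CPM at the median.

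The next 6 rows lay close together. Cyp3a23/3a1 was at 2385 ± 282 CPM (SD, n = 6), Cyp4a2, a fatty acid hydroxylase, at 2295 ± 298, and Cyp2c11, the male-specific testosterone hydroxylase, at 2027 ± 572. Cyp2e1, which oxidises ethanol and small solvents, was at 1905 ± 456, the male-specific Cyp2c13 at 1692 ± 165, and Cyp1a2, an oxidase of aromatic amines, at 1564 ± 369. Their ranges overlapped from neighbour to neighbour. Probe efficiency can differ between genes, so this is an order of readouts and not of transcript numbers.

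At the low end of frozen liver, Cyp7a1, the rate-limiting enzyme of bile acid synthesis, had a mean of only 0.925 ± 0.523 CPM, and Cyp1a1, which the aryl hydrocarbon receptor induces, 1.86 ± 0.594 CPM. Cyp17a1, a steroid hydroxylase, was at 6.09 ± 1.65 CPM. Cyp11a1, Cyp19a1 and Cyp24a1 had 1 count each over all 6 libraries, and Cyp11b2 and Cyp2w1 had 0, which allows up to 0.144 CPM over the group (3 counts; counting error only).

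Frozen lung had a short and different list. Cyp26b1, which breaks down retinoic acid, led with 186, 202, 122, 224 and 226 CPM in libraries 49 to 53. Cyp51, the demethylase of cholesterol synthesis, followed with 142, 167, 184, 166 and 155 CPM. These rows overlapped each other and no other row.

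Below them stood Cyp2e1 at 37.5, 65.05, 45.6, 34.3 and 42.7 CPM, and Cyp2f4, which activates naphthalene in the lung, at 23.8, 7.98, 53.3, 57.6 and 58.3 CPM. Cyp1b1, an oxidase of polycyclic hydrocarbons outside the liver, gave 21.1, 20.8, 30.9, 43.7 and 23.2 CPM. Cyp2a1, a testosterone hydroxylase, gave 3.66, 3.99, 23.6, 27.8 and 23.2 CPM. Libraries 49 and 50 were the lowest for both Cyp2f4 and Cyp2a1, and markers of airway cells were without counts, so the part of airway tissue in these libraries was not tested. Cyp2j4, an epoxygenase of arachidonic acid, lay at 15.9 ± 2.56 CPM (SD, n = 5) and Cyp2c23, another one, at 11.6 ± 3.74. The P450 sum was 511 CPM at the median (459 to 599), 1.68% of the liver value (1.39% with the multiples divided).

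The comparison of frozen tissues gave the tissue pattern without fixation. Of the 30 rows tested 28 could be fitted, since Cyp11b2 and Cyp2w1 had 0 counts in both frozen tissues, and 20 were higher in liver and 2 in lung; over all rows 23.3% were higher in liver and 40.1% in lung. The median log2 fold change was 6.73 over the 30 P450 rows, Cyp11b2 and Cyp2w1 included, and -0.65 over all 2374 rows. With column totals 18 were called higher in liver and 3 in lung. A row at 0 in one tissue could enter the test only through another group, and 19 of the 30 had fewer than 10 counts in every frozen lung library.

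All 5 tested rows for fatty acids and eicosanoids were higher in liver, as were 13 of 17 in the xenobiotic families. Cyp2c11, with 0 to 0.474 CPM in frozen lung, differed by 13.69 ± 0.44 on the log2 scale (SE; edgeR adjusted p = 4.36e-27), and Cyp3a2, with 0 to 4.79 CPM there, by 13.95 ± 0.59 (edgeR adjusted p = 2.10e-23). No library of either tissue overlapped for these rows. Cyp2c6v1 had 3 counts in frozen lung and 30081 in frozen liver, a ratio of 5406 (95% exact counting interval 1850 to 26214). Such ratios and bounds are of CPM pooled over a group, and with TMM-scaled totals this one was 15441. Cyp2d5 had 0 and 1006 counts, at least 181-fold higher in liver against a floor of 3 counts over the group (516-fold with TMM).

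Lung exceeded liver at Cyp1b1 and Cyp26b1. Cyp26b1 lay at 2.66 to 9.87 CPM in liver against 122 to 226 in lung, a log2 difference of -3.69 ± 0.35 (liver minus lung; edgeR adjusted p = 1.495e-12). Cyp1b1 lay at 0 to 0.756 CPM in liver against 20.8 to 43.7 in lung (-4.56 ± 0.60, edgeR adjusted p = 7.14e-09). Both were called in this direction under the 4 scalings. Cyp1a1 was lower in liver with column totals alone (log2 -1.16), where TMM gave 0.32 ± 0.45 and no call. Cyp2f4 was not called (0.79 ± 0.34, edgeR adjusted p = 0.035), was called higher in liver with DESeq2 (1.36) and turned direction with column totals (-0.72). Here as in the later comparisons, fewer cells of a type and less RNA per cell cannot be told apart in bulk tissue.

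Embedding after freezing left most of the order of the liver rows, with a Spearman rho of 0.96 over the 36 mean CPM values (a description over rows). The sum was 29212 CPM (25591 to 33045), within the FR range as CPM of the column total, but with TMM-scaled totals its median went from 79285 to 50563.1. In FR > FFPE vs. FR liver 10 of 30 rows were higher and 5 lower; over all 2281 rows 33.6% were higher and 16.3% lower. With column totals the split was 15 higher and 3 lower. The falls called under the 4 scalings were Cyp2c23, Cyp2c11 and Cyp2b3.

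Cyp2b3 went from 4728, 5427 and 6436 CPM (lowest, median, highest) in FR to 1485, 2371 and 3219 in FR > FFPE, with no overlap (log2 -1.94 ± 0.22, edgeR adjusted p = 4.14e-08). Cyp2c11 went from 1447, 1916 and 2986 to 537, 912 and 1232 CPM, again without overlap (-1.94 ± 0.24, edgeR adjusted p = 2.29e-07). Cyp2c23 went from 342, 451 and 553 to 84.7, 145 and 232 CPM (-2.30 ± 0.25, edgeR adjusted p = 2.09e-08). Cyp2d1 and Cyp4a2 were called lower with TMM (-1.44 and -1.06) and kept that direction without a call with column totals (-0.73 and -0.36). Cyp3a2 overlapped between FR and FR > FFPE, at a log2 fold change of -0.90 ± 0.21.

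Among rows at a mean of 100 CPM or more in FR liver, Cyp1a2 and Cyp4a1 were over 2-fold higher in mean CPM without overlap. Cyp1a2 went from 1004, 1674 and 1913 to 2414, 3993 and 7506 CPM, and from 5.11% ± 0.90 to 14.8% ± 5.75 of the P450 sum. With TMM the log2 fold change of 0.81 ± 0.27 was under the fold required, and with column totals it was 1.46 and called. Cyp4a1 likewise had log2 fold changes of 0.69 ± 0.24 with TMM, without a call, and 1.36 with column totals, with one. The neighbour of Cyp1a2, Cyp1a1, rose from 1.06, 1.96 and 2.64 to 12.3, 18.9 and 25.6 CPM (log2 2.55 ± 0.32, edgeR adjusted p = 1.98e-07). Cyp7a1 rose from 0.320, 0.795 and 1.64 to 4.36, 9.52 and 15.2 CPM (2.495 ± 0.40, edgeR adjusted p = 6.39e-06).

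Cyp2a1 and Cyp2c24 also rose in FR > FFPE liver, from 16.2, 18.0 and 25.9 to 28.0, 72.4 and 121 CPM and from 0.278, 1.97 and 2.63 to 4.36, 9.003 and 20.9 CPM. Without FR > FFPE library 75, 76 or 77 Cyp2a1 lost its call. The other 6 rises began at 8 counts or fewer over the FR libraries: Cyp1b1, Cyp2w1, Cyp11a1, Cyp11b2, Cyp19a1 and Cyp24a1, whose FR > FFPE means were 0.856 to 8.15 CPM. Cyp11b2, aldosterone synthase, went from 0 to 114 counts, at least 46.4-fold (28.5-fold with TMM). Cyp19a1, aromatase, went from 1 to 143 counts, a ratio of 175 (95% exact counting interval 30.8 to 6945; 107 with TMM).

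The largest falls in FFPE vs. FR liver were those of Cyp3a23/3a1 and Cyp3a2. As CPM of the column total the P450 sum was 20636 (18829 to 23743), below every FR library. With TMM 12 rows were higher and 13 lower in FFPE vs. FR liver, where 39.9% and 24.4% of all rows were. With column totals 16 were higher and 4 lower, and totals over rows under 1% of every library gave 16 and 5. The medians of the P450 rows on these scales were 0.00, 1.63 and 1.24, beside 0.35, 1.97 and 1.57 over all rows.

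The 4 falls that held under every scaling were those of abundant rows. Cyp3a2 went from 7776, 8939 and 10829 CPM to 1607, 2510 and 3628 (log2 -3.50 ± 0.23, edgeR adjusted p = 2.31e-12; -1.88 with column totals), and its part of the P450 sum from 30.3% ± 1.81 to 11.9% ± 2.92. Cyp3a23/3a1 went from 1986, 2428 and 2736 to 514, 613 and 772 CPM (-3.50 ± 0.22, edgeR adjusted p = 1.35e-12; -1.90). The intervals of these rows overlap in the genome, and whether reads were shared between them was not tested.

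Cyp2b3 reached 1956, 2054 and 2122 CPM (-3.01 ± 0.23, edgeR adjusted p = 1.645e-11; -1.41 with column totals) and Cyp2c11 reached 740, 861 and 1304 (-2.76 ± 0.25, edgeR adjusted p = 3.44e-10; -1.16). Neither overlapped its FR libraries. Cyp2d1 was called lower with TMM (-2.29) and not with column totals (-0.66). Cyp2c13 and Cyp2c23 were likewise called lower with TMM and DESeq2 (-1.80 and -2.17 with TMM) and not with column totals (-0.19 and -0.57).

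The 12 rises, called under the 4 scalings, all began under 30 CPM in every FR library. They held 7 of 8 rows for sterols, steroids, bile acids and vitamins, and 5 of 17 in the xenobiotic families. Over all rows 39.9% were higher. Of the 30 tested rows 9 had fewer than 10 counts in every FR liver library. Such rows entered the tests through the embedded groups and had little room to be lower in either. The number of rises by family is therefore no separate result. Cyp1a1 (log2 5.02 ± 0.32, edgeR adjusted p = 1.91e-12), Cyp7a1 (4.83 ± 0.39, edgeR adjusted p = 4.33e-11) and Cyp2f4 (1.81 ± 0.19, edgeR adjusted p = 4.52e-09) led among the rows with counts in every FR library.

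For 6 further rows called lower with TMM the direction turned with column totals: Cyp1a2, Cyp2c6v1, Cyp2e1, Cyp2j4, Cyp4a2 and Cyp4f4, at log2 -1.10 to -1.37 on the former scale and 0.24 to 0.50 on the latter. Within the P450 sum, Cyp2e1 went from 6.24% ± 1.18 in FR to 12.8% ± 2.54 in FFPE, and Cyp4a2 from 7.58% ± 0.72 to 13.0% ± 1.57 (SD, n = 6). Cyp51 rose in CPM from 274, 319 and 347 to 665, 892 and 950, but with TMM its log2 fold change was -0.16 ± 0.19. The sum of the hepatocyte markers was 314041 CPM at the median in FR, 267410 in FR > FFPE and 203044 in FFPE liver. Single markers went both ways: mean Alb went from 159835 CPM in FR to 92199 in FFPE, and Apoc3 from 328 to 1330. Of 11 markers 0 were called higher and 9 lower in FFPE vs. FR with TMM, and 1 and 1 with column totals. The sum of the blood markers Hbb and Alas2 fell from 6583 to 3629 and 1223 CPM at the median. Alas2 alone had means of 15.9, 12.5 and 18.9 CPM in FR, FR > FFPE and FFPE liver. The part of either marker set in the P450 values was not tested.

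**Figure D2:**
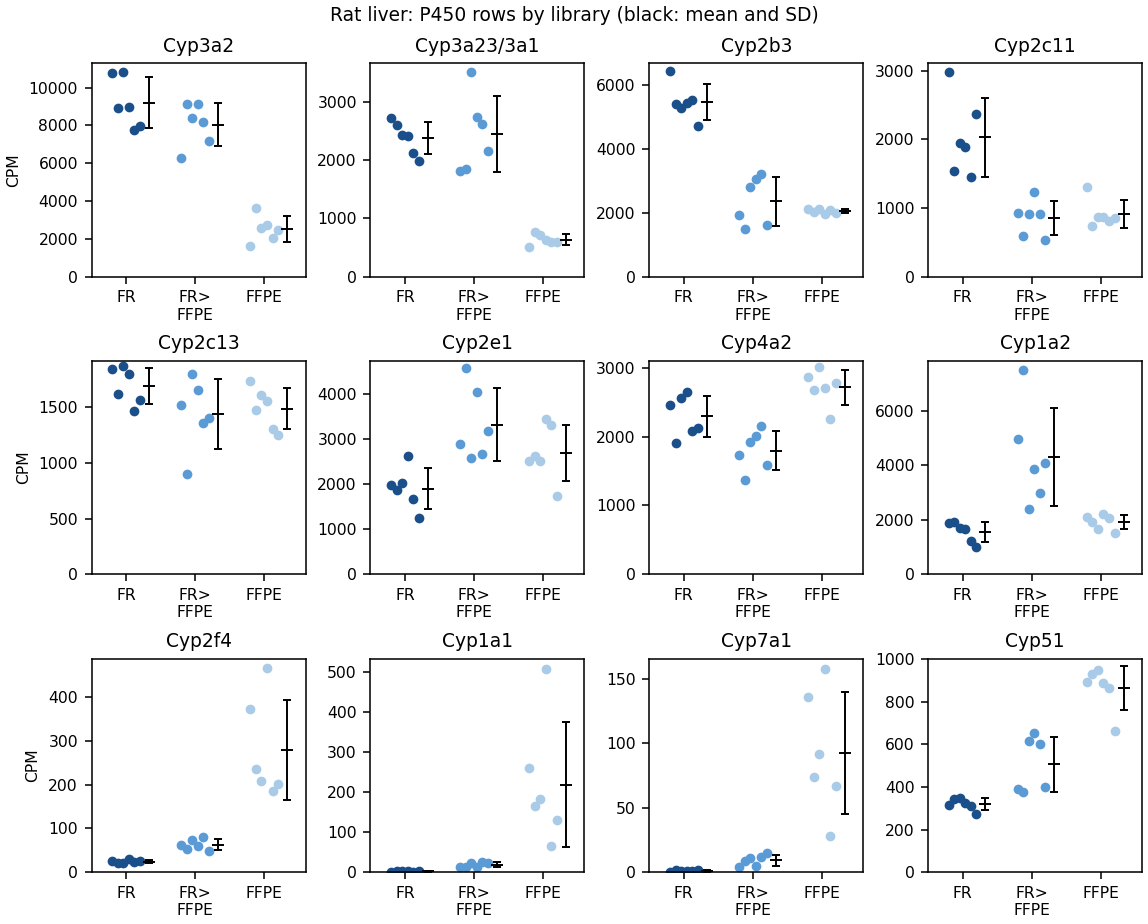
CPM of 12 P450 rows (vertical, from 0) in each liver library by preservation (horizontal), with the mean and SD of each group in black (n = 6). Cyp3a2 and Cyp3a23/3a1 drop in FFPE, Cyp2b3 and Cyp2c11 in both embedded groups, Cyp1a2 peaks in FR > FFPE at 2414 to 7506 CPM, and Cyp1a1 and Cyp7a1 spread widely in FFPE.

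FFPE vs. FR > FFPE liver compared direct fixation with fixation after freezing, within embedded tissue, and the depth of the libraries differed as well. It gave 6 rows higher and 8 lower, beside 23.1% and 10.9% of all rows, and 10 higher and 3 lower with column totals. Cyp3a23/3a1 (log2 -2.82 ± 0.21), Cyp3a2 (-2.61 ± 0.22) and Cyp1a2 (-2.13 ± 0.28) were lower under the 4 scalings and did not overlap in CPM. Cyp1a2, for example, had 1518, 1996 and 2208 CPM in FFPE. Cyp4a1, Cyp2j4, Cyp2e1, Cyp4f4 and Cyp2b3 were called lower with TMM at -1.08 to -1.32 and at -0.20 to -0.41 with column totals, without a call.

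The 6 rows higher in FFPE than in FR > FFPE liver were Cyp24a1, Cyp2w1, Cyp1a1, Cyp7a1, Cyp17a1 and Cyp2f4, all under the 4 scalings. Cyp1a1 reached 65.2, 174 and 509 CPM (log2 2.47 over FR > FFPE) and Cyp7a1 28.1, 82.7 and 158 CPM (2.34). Cyp2f4, at 20.7 to 29.8 CPM in FR liver, reached 187, 222 and 466.03 CPM in FFPE. Cyp24a1, which degrades vitamin D, had 1 count in the FR libraries and 68 in the FFPE libraries. Cyp2w1 had 0 and 108 counts, at least 289-fold higher than in FR (101-fold with TMM).

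Counts of Cyp26b1, Cyp1a1 and Cyp7a1 varied less than the depth of the FFPE liver libraries. The totals differed 6.37-fold, and Cyp2b3 counts differed 6.83-fold and Cyp51 counts 6.19-fold between the lowest and the highest library. Cyp26b1, in contrast, had 12 to 15 counts in all 6 libraries, Cyp1a1 43 to 88 and Cyp7a1 22 to 44. Over the 10 rows with a frozen mean under 10 CPM and a count in every FFPE library, the coefficient of variation was smaller for counts than for CPM in 10, with medians of 39.8% and 70.6%. Among the 19 rows at 10 CPM or more it was smaller in 3, with medians of 58.2% for counts and 17.6% for CPM. Library 82, the shallowest with 139475 counts, had the highest CPM of Cyp26b1 (100.4), Cyp1a1 (509) and Cyp7a1 (158). In the other groups this split was not seen to the same extent: in FFPE lung counts varied less than CPM in 15 of 22 low rows and 3 of 8 others, and in FR > FFPE lung in 7 of 22 and 2 of 8.

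**Figure D3:**
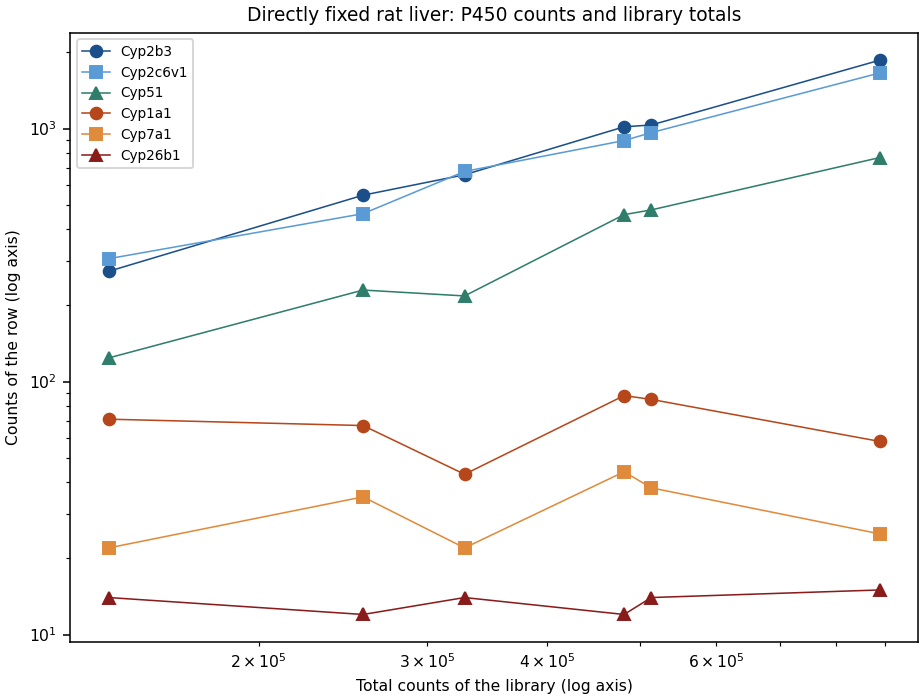
Counts of 6 P450 rows (vertical, log axis) against the total counts of each of the 6 FFPE liver libraries (horizontal, log axis), joined in order of total. Cyp2b3, Cyp2c6v1 and Cyp51 climb with the total, while Cyp1a1, Cyp7a1 and Cyp26b1, all under 10 CPM in frozen liver, stay level at 12 to 88 counts.

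Embedded lung held P450 rows that frozen lung all but lacked. A gain of rows was also seen outside the P450 rows. Over all rows, 2336 to 2372 were above 0 in an FR lung library, 2543 to 2594 in FR > FFPE and 2486 to 2602 in FFPE. The P450 sum was 3925 CPM at the median in FR > FFPE (3217 to 4704) and 2991 in FFPE (1592 to 5367), above every FR library (459 to 599). In FR > FFPE vs. FR 25 of 30 rows were higher and 0 lower, beside 37.7% and 18.3% of 2322 rows. In FFPE vs. FR 25 were again higher and 0 lower, beside 36.1% and 17.1%. Of the 30 rows 19 had fewer than 10 counts in every FR lung library and entered the test through the embedded groups, so they had little room to be lower. No tested row had a log2 fold change below 0 with edgeR or DESeq2, so none was lower at an unadjusted p under 0.05 either. The medians of the log2 fold change were 5.95 and 5.39, against 0.35 and 0.24 over all rows. With column totals 27 and 28 rows were higher.

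The 5 largest rises in FR > FFPE were those of Cyp11b2, Cyp2c6v1, Cyp2c24, Cyp4a1 and Cyp3a2, and in FFPE those of Cyp24a1, Cyp2c6v1, Cyp2w1, Cyp2c24 and Cyp11b2. Cyp3a2, at 0, 4.79, 0, 0 and 2.84 CPM in libraries 49 to 53 of FR lung, stood at 808, 1013 and 1207 CPM in FR > FFPE (log2 8.59 ± 0.62, edgeR adjusted p = 7.13e-10) and at 201, 450 and 1199 in FFPE (7.63 ± 0.61, edgeR adjusted p = 4.49e-09). Cyp2c6v1 went from 3 counts to 2404 in FR > FFPE, a ratio of 1203 (95% exact counting interval 411 to 5836; 750.2 with TMM), and stood at 234, 334 and 399 CPM there. Cyp4a1, a fatty acid hydroxylase, went from 1 count to 854 in FR > FFPE (64.4, 111 and 160 CPM). Cyp2c24 went from 0 counts to 395 and to 152 in FFPE, at least 198-fold and at least 102-fold (123.3-fold and 62.5-fold with TMM). Cyp24a1 and Cyp2w1, at 0 counts in FR lung, had 188 and 155 counts in FFPE lung, at least 126-fold and at least 104-fold higher (77.4-fold and 63.8-fold with TMM). Embedded and frozen libraries did not overlap for any of these rows.

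Rows of steroid-making organs appeared in the same libraries. Cyp11b2 had 0 counts in FR lung, 531 in FR > FFPE (48.7, 71.96 and 109 CPM) and 122 in FFPE (15.2, 18.2 and 49.8 CPM), at least 266-fold and at least 82.1-fold higher (166-fold and 50.2-fold with TMM). Cyp19a1 had 1 count in FR lung and 56.5, 73.7 and 97.2 CPM in FR > FFPE. Cyp17a1 had 1 count and 24.9, 44.6 and 67.3 CPM. Cyp11a1, which starts steroid synthesis from cholesterol, had 2 counts and 24.1, 41.6 and 49.6 CPM. None of these exceeded a mean of 6.09 CPM in frozen liver.

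Of the 8 rows at 10 CPM or more in frozen lung, 2 were called higher in both embedded groups. Cyp2a1 had 101, 129 and 199 CPM in FR > FFPE (log2 2.36 ± 0.48, edgeR adjusted p = 0.000207) and 34.2, 123.5 and 313 in FFPE (2.21 ± 0.48, edgeR adjusted p = 0.000435). Cyp2c23 had 32.5, 60.9 and 70.4 CPM in FR > FFPE (1.57 ± 0.30) and 20.3, 35.8 and 99.6 in FFPE (1.15 ± 0.30). Neither row overlapped FR lung.

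Another 4 of these rows were called in neither group. Cyp26b1 had 237, 303 and 593 CPM in FR > FFPE and 193, 352 and 441 in FFPE, with log2 fold changes of 0.22 ± 0.26 and 0.07 ± 0.26. Cyp51 had 250, 289 and 398 CPM in FR > FFPE (0.26 ± 0.15) and 225, 272 and 333 in FFPE (0.01 ± 0.16). Cyp2e1 (0.60 ± 0.27 and 0.54 ± 0.27) and Cyp1b1 (0.82 ± 0.27 and 0.26 ± 0.27) were not called either. A missed call does not show equal levels, and with column totals Cyp2e1 and Cyp1b1 were called higher in both embedded groups. Cyp2f4 was not called in FR > FFPE (65.5, 80.6 and 91.8 CPM; 0.28 ± 0.46) and was in FFPE (58.3, 166 and 476 CPM; 1.60 ± 0.47, edgeR adjusted p = 0.00514), while Cyp2j4 showed the reverse (1.17 ± 0.22 and 0.71 ± 0.23).

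The order of the 36 rows by mean CPM in FR > FFPE lung had a Spearman rho of 0.56 with FR liver and 0.63 with FR lung. This is a description over rows read by the same probes. As a percent of the FR liver mean, FR > FFPE lung held 11.2% for Cyp3a2, 23.0% for Cyp2c6v1 and 27.1% for Cyp4a1, but 0.983% for Cyp2b3 and 2.74% for Cyp2c13. For Cyp4a8 and Cyp17a1 it held 661% and 712%.

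Hepatocyte markers were measured in the same libraries. Their sum in lung was 119 CPM at the median in FR, 565 in FR > FFPE and 352 in FFPE, and 11 of 11 had a count in each embedded group. That is 0.18% of FR liver in FR > FFPE lung and 0.112% in FFPE lung, where the P450 sum was 12.9% and 9.81% of it. Single markers differed: mean Serpina1 was 95.6 CPM in FR lung and 46.5 in FR > FFPE, and mean Apoa2 1.40 and 222. Of 9 markers tested in lung, 6 were called higher and 1 lower in FR > FFPE vs. FR, beside 37.7% and 18.3% of all rows. In FFPE vs. FR 7 were higher and 0 lower, beside 36.1% and 17.1%. The P450 sum per hepatocyte marker sum was 0.0761 to 0.126 in FR liver. In lung it was 2.43 to 4.98 in FR, 3.98 to 10.7 in FR > FFPE and 1.196 to 9.68 in FFPE, so the lung groups overlapped. Albumin had 0 counts in FR > FFPE lung libraries 58 and 59, in which Cyp3a2 was at 996 and 808 CPM. The marker sum in these libraries was 416 and 299 CPM, above the 100 to 246 CPM of FR lung. In the other FR > FFPE lung libraries albumin was at 7.14 to 352 CPM, and it was also 0 in FR lung library 51. Other markers differed from albumin: over the FR > FFPE lung libraries Apoa2 was at 130 to 282 CPM and Fga at 51.5 to 109. Tf and Ttr were at 0 to 3.97 and 0 to 5.93 CPM there. The part of hepatocyte RNA in the P450 values of lung was not tested. FFPE lung library 63, the shallowest, was highest in hepatocyte markers, at 3030 CPM, and without it 25 rows were higher and 0 lower. Counts of Alb moved in steps of 9 and the lowest Cyp3a2 count above 0 was 6, so a count of 0 is coarse for either. With the 13 rows that are multiples divided, 6 of the markers and Cyp3a2 among them, the marker sum of FR > FFPE and FFPE lung was 0.335% and 0.169% of that of FR liver, and the P450 sum 8.51% and 6.61%.

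**Figure D4:**
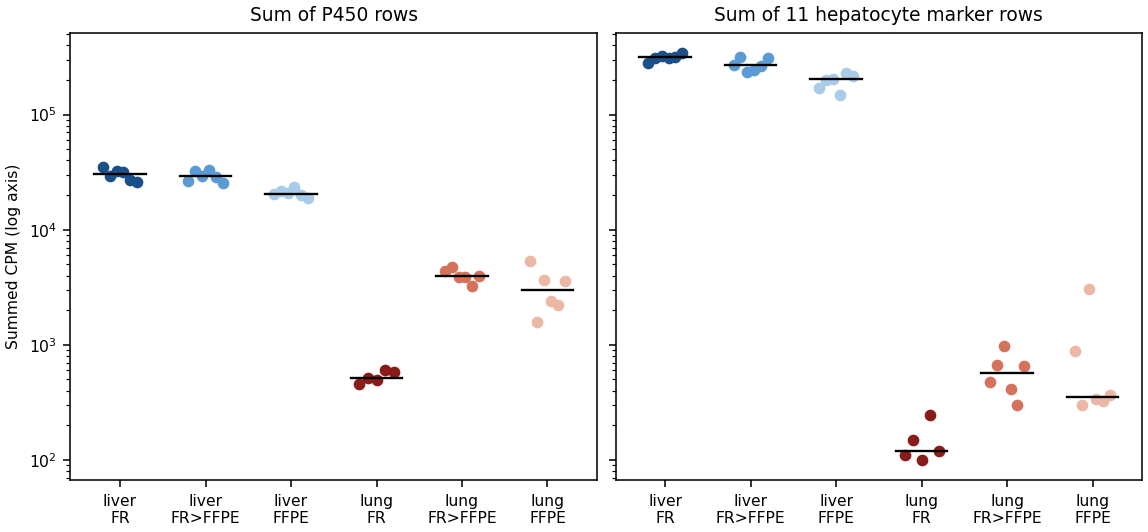
Summed CPM (vertical, log axis) of the P450 rows (left) and of 11 hepatocyte markers (right) in each library by group (horizontal), with medians as bars. The P450 sum is 7.68-fold and 5.85-fold that of frozen lung in FR > FFPE and FFPE lung, at medians of 3925 and 2991 CPM, while the marker sum is 565 and 352 CPM against 314041 in frozen liver.

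FFPE lung after 1 year and FR > FFPE lung differed less. Of 30 rows 4 were higher and 6 lower in FFPE, beside 6.24% and 6.42% of all rows. Lower were Cyp2c11 (10.1, 13.2 and 43.0 CPM against 47.0, 64.8 and 71.4; log2 -1.91 ± 0.27, edgeR adjusted p = 4.92e-05), Cyp11b2 (-1.68 ± 0.27), Cyp4a1 (-1.56 ± 0.35), Cyp4a8 (-1.28 ± 0.31), Cyp19a1 (-1.25 ± 0.29) and Cyp4a2 (-1.07 ± 0.25, not called with column totals). Higher were Cyp24a1 (2.69 ± 0.47), Cyp2w1 (1.81 ± 0.34), Cyp2d5 (1.40 ± 0.42) and Cyp2f4 (1.33 ± 0.44). Only Cyp2c11 and Cyp24a1 did not overlap between the groups in CPM. Leaving out FFPE library 61 gave 3 higher and 11 lower, leaving out library 66 gave 3 and 9, and Cyp2f4 lost its call without FFPE library 61, 63 or 65 or FR > FFPE library 58 or 59. Cyp2d5 lost its call without library 66.

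The tissues were then compared for their response to embedding, as an interaction in a joint fit. The change in FR > FFPE vs. FR was smaller in liver than in lung for 17 of the 28 rows that could be fitted and larger for 1, beside 13.7% and 15.6% of all rows. Cyp2c6v1 differed by -9.43 ± 0.46 on the log2 scale (liver minus lung; edgeR adjusted p = 8.03e-20) and Cyp3a2 by -9.31 ± 0.58 (edgeR adjusted p = 1.12e-16). Cyp1b1 was the exception, with a larger rise in liver (2.31 ± 0.77, edgeR adjusted p = 0.0162), and lost its call without FR > FFPE liver library 78. No interaction was called for Cyp26b1, Cyp51, Cyp2e1 and Cyp2f4 (0.62 ± 0.45, -0.16 ± 0.23, -0.32 ± 0.36 and 0.53 ± 0.46). Column totals gave 18 and 1. Cyp11b2 and Cyp2w1, with 0 counts in both frozen tissues, could not be fitted. Of the 30 tested rows 19 had fewer than 10 counts in every FR lung library, and 9 in every FR liver library. Rows that low in FR lung had little room to fall there, which favours a smaller change in liver. The count of rows by direction is therefore no separate result, and the size of these fitted values depends on the prior count.

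**Figure D5:**
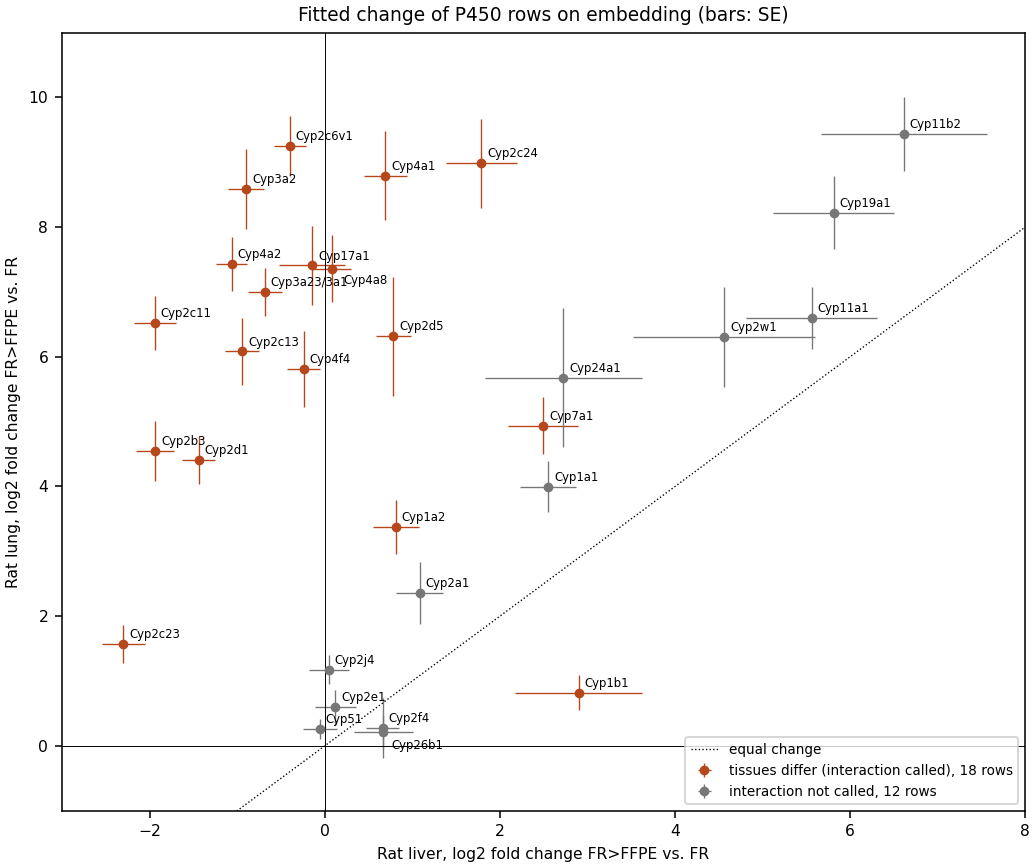
Fitted log2 fold change of FR > FFPE vs. FR in lung (vertical) and liver (horizontal) for 30 P450 rows, with SE as bars, coloured by whether the interaction was called. Of the rows called, 17 lie above the line of equal change and 1, Cyp1b1, below it; values of rows with 0 to 3 frozen counts depend on the prior count.

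The median difference between tissues over the P450 rows was smaller in embedded than in frozen tissue. In FR > FFPE liver vs. lung 17 rows were higher in liver and 5 in lung, beside 20.7% and 39.0% of all rows, with column totals the split was 14 and 12, and without FR > FFPE liver library 78 it was 17 and 8. The median log2 difference was 2.13, against 6.73 between frozen tissues. Of the 30 tested rows 19 had fewer than 10 counts in every FR lung library, so the frozen value depends in part on the prior count. The smaller difference restates the rises in embedded lung and is no separate result. Cyp3a2 still differed by 4.63 ± 0.35 and Cyp1a2, the row that differed most, by 7.91 ± 0.39 (edgeR adjusted p = 3.85e-21). Besides Cyp26b1 and Cyp1b1, lung was higher at Cyp11b2 (-1.83 ± 0.38), Cyp19a1 (-1.54 ± 0.32) and Cyp7a1 (-1.23 ± 0.32; not called with DESeq2).

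In FFPE liver vs. lung 22 rows were higher in liver and 1, Cyp26b1, in lung (-2.47 ± 0.35, edgeR adjusted p = 6.17e-08), beside 24.5% and 23.4% of all rows. With column totals the split was 15 and 5, and without FFPE liver library 84 it was 22 and 3. Cyp2b3 (6.81 ± 0.32), Cyp2c11 (6.52 ± 0.29), Cyp2c13 (5.96 ± 0.26), Cyp4a2 (5.84 ± 0.24) and Cyp2e1 (5.41 ± 0.30) differed most. The median log2 difference over the P450 rows was 2.02, beside -0.08 over all rows.

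Other genes of the pathway were read on the same panel. Of 16 tested partners and regulators, 10 were higher in frozen liver than in frozen lung and 0 lower (median log2 1.95), beside 23.3% and 40.1% of all rows, and with column totals the split was 5 and 5. Nr1i2 and Nr1i3, the xenobiotic receptors PXR and CAR, gave 71.2 ± 11.02 and 23.6 ± 5.02 CPM in FR liver and 0.904 ± 0.349 and 0.0814 ± 0.182 CPM in FR lung. In lung 8 of 16 rose and 4 fell in FR > FFPE vs. FR and the same numbers in FFPE vs. FR, beside the 37.7% and 18.3%, and 36.1% and 17.1%, of all rows. With column totals these were 9 and 4, and 9 and 2. Nr1i3 rose to 22.4 ± 9.12 CPM in FR > FFPE lung (log2 6.46 ± 0.70, edgeR adjusted p = 4.33e-08).

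In liver 4 of 16 rose and 4 fell in each embedded group against FR, beside the 33.6% and 16.3%, and 39.9% and 24.4%, of all rows. With column totals 11 rose and 1 fell in FR > FFPE, and 11 and 0 in FFPE. Ahr, the aryl hydrocarbon receptor, fell in FR > FFPE liver (-2.27 ± 0.26, edgeR adjusted p = 5.39e-08) and FR > FFPE lung (-2.80 ± 0.27, edgeR adjusted p = 5.75e-09), where Cyp1a1 rose. Por was at 2.75 ± 1.07 CPM in FR liver and 7.61 ± 3.00 in FR lung, and was not called in any comparison with TMM. The phase II list, mostly of conjugating enzymes, also held carboxylesterases, epoxide hydrolases and Nqo1, and 19 of its rows were tested in liver. In FR > FFPE vs. FR 4 were higher and 6 lower, beside 33.6% and 16.3% of all rows. In FFPE vs. FR these were 3 and 12, beside 39.9% and 24.4%. The summed CPM of the 29 phase II rows with counts was 17364 at the median in FR, 18251 in FR > FFPE and 17598 in FFPE liver. With column totals the splits were 6 and 1, and 7 and 2. In lung, 12 of 19 were higher and 2 lower in FR > FFPE vs. FR (13 and 1 with column totals), beside 37.7% and 18.3% of all rows. Their median log2 fold change was 1.42, beside 5.95 for the P450 rows and 0.35 over all rows.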

How the data were processed

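Rat liver and lung libraries were generated by TempO-Seq on the s1500+ rat panel. The deposited tables hold estimated counts per gene, not normalized, that the authors made from the reads. About 12.456% of values in the liver table and 13.577% in the lung table were not whole. The submitters' processing notes list STAR 2.5.3a, Partek and rn6 without tying them to a table, and the counting step is not given in the sources used here. The deposited log2 tables were not used. All 35 mapped libraries with depth were used, without library 54 (12 counts).

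Groups followed the sample labels, which name no animals or batches, so p-values measure the spread between these libraries. Levels were CPM of the column total. Counts were rounded and tested with edgeR 4.0.16 (R 4.3.3; filterByExpr, TMM, quasi-likelihood, Benjamini-Hochberg over all tested rows), per tissue over its 3 groups, and jointly for liver vs. lung and the interaction. Calls needed an adjusted p under 0.05 and a 2-fold change. Alternatives were column totals, totals over rows under 1% of every library, DESeq2 1.42.0, no filter, library 54 kept, each library left out in turn and other fits. Leaving out libraries other than FR lung, and dividing the 13 rows whose values are a fixed multiple in both tables (searched among rows above 0 in at least 8 libraries) by that number, were chosen after seeing the data. On simulated data 97.5% of 200 changed rows were recovered for liver, 100% for lung (2293 rows tested) and 94.5% for the interaction. Of the rows called there, 1.015%, 1.961% and 4.061% were false, in the same order. The shares are not split by count level or by scaling. They therefore do not test rows with few frozen counts, or calls that depend on the scale.

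The members and gene lists were chosen with earlier results of these data known. Values per library are given for the 8 highest rows in each frozen tissue and for the 5 largest rises and falls of each comparison among called rows at 10 CPM or more, and other rows are given by range or count. Intervals and floors (3 counts) cover counting error only.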

Additional observations from a re-analysis of the deposited data

Results flagged for a closer look

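Of 137 P450 rows and groups of 4 to 10 libraries, 10 had 1 library far from the others by Dixon's criterion, and chance flags about 5%. Library 82, the shallowest FFPE liver library, accounted for 6 of them: Cyp26b1 at 100.4 CPM, Cyp2a1 at 229.4, Cyp2j4 at 93.2, Cyp2d5 at 425.1, Cyp11b2 at 43.02 and Cyp2d1 at 729.3, each the highest of its group. Cyp2c11 was highest in FFPE liver library 79 (1303.5 CPM) and in FFPE lung library 61 (43.03 CPM). Cyp51 was lowest in FFPE liver library 84 (664.7 CPM), and Cyp4a1 was highest in FR > FFPE liver library 74 (1601.1 CPM).

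For 18 rows the change in FR > FFPE vs. FR differed between tissues by the interaction test of edgeR. Low counts in FR lung left many rows little room to fall there, as given above. On the log2 scale (liver minus lung), Cyp1b1 differed by 2.31. The drug-metabolising rows Cyp2c6v1, Cyp3a2, Cyp2c11, Cyp3a23/3a1, Cyp2c13, Cyp2c24 and Cyp2b3 differed by -9.43, -9.31, -8.26, -7.50, -6.82, -6.67 and -6.32. The fatty acid rows Cyp4a2, Cyp4a1, Cyp4a8 and Cyp4f4 differed by -8.30, -7.79, -7.08 and -5.86. Cyp17a1, Cyp2d1, Cyp2d5, Cyp2c23, Cyp1a2 and Cyp7a1 differed by -7.22, -5.68, -5.04, -3.73, -2.39 and -2.25.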

How the results depend on the processing

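The number of P450 rows called in each comparison stayed within 1.5 times the reported count under every scaling, test, filter and left-out library run, but the split between higher and lower rows in liver moved with the scaling as given above. Without 1 library the counts were 22 to 23 (frozen tissues), 22 to 25 (FR > FFPE tissues), 21 to 25 (FFPE tissues), 17 to 20 (interaction), 14 to 16 (FR > FFPE vs. FR liver), 23 to 25 and 13 to 15 (FFPE liver against FR and FR > FFPE), 25 to 26 and 24 to 25 (FR > FFPE and FFPE lung against FR) and 9 to 14 (FFPE vs. FR > FFPE lung). With CPM of the TMM-scaled total the median P450 sum was 79285 in FR, 50563.1 in FR > FFPE and 18888.9 in FFPE liver, and 2224.5 and 1497.4 in FR > FFPE and FFPE lung. With the multiples divided the P450 calls of every comparison had the same counts in each direction, and the median sum was 36696.4 in FR and 24882.7 in FFPE liver and 3122.7 in FR > FFPE lung. Without Cyp3a2 it was 20978, 20922.1 and 18330.8 in liver, and without Cyp26b1 357.3 in FR lung. No paired analysis was possible because the labels number libraries through the series and tie no library to an animal. Calls of single rows lost without 1 library, beside those given above, were Cyp4a2 in FR > FFPE vs. FR liver (library 78) and Cyp2j4 in FFPE vs. FR > FFPE liver (library 74). Rows with few counts in frozen tissue have fitted folds that depend on the prior count, and the depth of the FFPE libraries limits the low rows.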

Other observations

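The rows whose values were a fixed multiple were the same 13 in the liver and the lung table, with the same number in both. Besides Cyp3a2, Alb and Apoa1, these were Apoh and Apoc1 (7 times), Fetub (6 times), Fga and Fgg (4 times), Gc, Mug1 and Serpina1 (3 times) and Tf and Ttr (2 times). Rows with only whole counts were found by their common divisor, and rows with decimals by values of more than 6 significant digits that fell to 6 once divided. These counts enter the column totals on which CPM rests.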
